A study of Mus musculus with 3 samples.

Results

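Broad Isl1 peaks are the stretches of chromatin of 2000 bp or more that were listed as 1 region of Isl1 enrichment in cardiac progenitor cells (CPCs). They were chosen by their width alone, taken as end minus start in a list from which identical repeated lines had been dropped, at any distance from a transcription start site (TSS). This left 435 of 14082 distinct peaks, or 3.09%, and they held 7.59% of all bases under peaks. The list came from chromatin immunoprecipitation followed by sequencing (ChIP-Seq) with an antibody against Isl1 in 2 replicates, with 1 library of unenriched input chromatin as background. All samples were day 5 CPCs differentiated from E14 Tg(Nkx2–5-EmGFP) embryonic stem cells (ESCs), a single mouse ESC line that carries a green fluorescent reporter of the early cardiac gene Nkx2-5. Both replicates were combined into 1 list before deposit, the list gives no score or read number, and depth is therefore unknown and no error between replicates can be attached to any value below. Intervals are 95% Wilson or Newcombe intervals and cover counting error within this list alone.

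Isl1 is a LIM-homeodomain transcription factor that marks the second heart field, the progenitor pool of the outflow tract and right ventricle. Factors of this kind bind a short motif, and most of their peaks are narrow. Wide stretches of enrichment are known from CpG islands, the unmethylated stretches rich in C and G that lie over many mammalian promoters, and from arrays of repeated sequence. Both kinds of sequence lay under the broad Isl1 peaks. In the mouse, young LINE-1 retrotransposons start with an array of GC-rich tandem units that serves as their promoter, and protein-coding reading frames follow it.

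The sequences below show these kinds side by side, on the plus strand of mm9, 5′ to 3′, with every CG dinucleotide in capitals. The first 2 are the central 200 bp of the widest single-copy peak within 1 kb of a TSS (Mn1) and of the widest peak of a cardiac transcription factor gene (Klf13). They lie at chr5:111847945-111848144 and chr7:71083312-71083511, each in a coding exon, and hold 11 and 30 CG dinucleotides.
Mn1: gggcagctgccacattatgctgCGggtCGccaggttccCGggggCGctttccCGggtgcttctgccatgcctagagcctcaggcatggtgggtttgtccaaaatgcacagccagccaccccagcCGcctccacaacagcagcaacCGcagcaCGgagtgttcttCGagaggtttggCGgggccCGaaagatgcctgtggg
Klf13: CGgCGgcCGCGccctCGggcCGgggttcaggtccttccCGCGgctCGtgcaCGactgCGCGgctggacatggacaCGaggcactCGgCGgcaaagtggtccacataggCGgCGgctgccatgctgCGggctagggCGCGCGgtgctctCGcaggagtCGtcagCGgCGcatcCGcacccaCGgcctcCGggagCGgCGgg
The next sequences are repeat units. The first 2 are neighbouring units of 208 bp from the middle of a peak assigned to 1700008P02Rik (chr3:6302413-6302620 and chr3:6302621-6302828, intergenic). The third is 1 unit of 212 bp from a peak assigned to Aga (chr8:53391346-53391557, intergenic) and the fourth 1 unit of 206 bp from a peak assigned to Gm14920 (chrX:114201952-114202157, intergenic).
1700008P02Rik, unit 1: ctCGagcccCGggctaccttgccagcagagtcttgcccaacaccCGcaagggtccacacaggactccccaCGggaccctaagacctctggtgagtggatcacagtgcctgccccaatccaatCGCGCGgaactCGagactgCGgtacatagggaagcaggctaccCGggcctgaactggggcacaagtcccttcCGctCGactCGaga
1700008P02Rik, unit 2: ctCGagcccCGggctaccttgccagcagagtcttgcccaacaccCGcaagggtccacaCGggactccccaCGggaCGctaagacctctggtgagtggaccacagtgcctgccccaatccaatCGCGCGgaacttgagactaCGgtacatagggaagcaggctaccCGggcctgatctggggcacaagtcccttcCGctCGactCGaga
Aga: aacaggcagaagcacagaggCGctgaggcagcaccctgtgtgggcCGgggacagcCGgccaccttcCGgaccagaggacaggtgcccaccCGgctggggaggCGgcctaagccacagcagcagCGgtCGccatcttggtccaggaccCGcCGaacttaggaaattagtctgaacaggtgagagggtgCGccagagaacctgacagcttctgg
Gm14920: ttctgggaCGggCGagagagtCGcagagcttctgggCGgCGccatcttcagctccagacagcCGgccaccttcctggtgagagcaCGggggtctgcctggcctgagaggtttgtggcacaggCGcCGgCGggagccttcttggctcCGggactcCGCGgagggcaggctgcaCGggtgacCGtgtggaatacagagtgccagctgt
The 1700008P02Rik units were identical to each other at 202 of 208 positions (97.1%). The Aga unit and the unit after it matched at 209 of 212 positions, and the Gm14920 unit and its neighbour at all 206.

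Width was used to choose these peaks and is given as a description. The median broad peak was 2261 bp wide, with quartiles of 2089.5 and 2571 bp and a maximum of 15349 bp, against a median of 947 bp over all peaks. Most lay close to the limit, since 311 were under 2500 bp, 58 reached 3000 bp and 9 reached 5000 bp. The 3 peaks just inside were those of Spanxn4, Sel1l and Mir7054, each 2001 bp wide, and the 3 just outside those of Cnot6l (1998 bp), Phlda1 (1997 bp) and Gm7978 (1997 bp). Of the 3 inside, Spanxn4 and Sel1l lay on multi-copy sequence and Mir7054 on single-copy sequence, and of the 3 outside, Gm7978 was multi-copy. Repeated lines came with width. Of the broad peaks 39 were written on 2 or more lines (8.97%), against 39 of the narrower ones (0.286%). The peaks on 3 lines were those of Ttr, Myo3a, Aga, Mn1 and E030030I06Rik. The paper found areas shared by the replicates with bedtools intersect and its -wa option, which prints a peak for every overlap. A repeated line can therefore stand for a further overlapping peak in the other replicate. Whether the peaks on repeated lines, Mn1 among them, were unbroken in both replicates was not tested.

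The broad peaks fell into 2 large groups by position and copy number. Copy number was the median number of times that the 31-base words of the central 200 bp occur in the mm9 genome, and a median of at least 2 was called multi-copy. Within 1 kb of a TSS there were 191 broad peaks, of which 186 were single-copy. Farther than 10 kb there were 189, of which 172 were multi-copy. The remaining 55 lay 1 to 10 kb away, 42 of them single-copy. Single-copy promoter peaks thus made up 42.8% of the broad peaks (interval 38.2% to 47.5%) and multi-copy distal peaks 39.5% (interval 35.1% to 44.2%). The narrower peaks were split in much the same way, with 37.3% and 41.5%, so this division is not particular to the broad peaks. At the midpoint, the annotation gave intergenic sequence for 166 peaks, introns for 114, coding exons for 90, untranslated exon parts for 60 and noncoding exons for 5.

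To ask what set the broad peaks apart from the 13647 narrower ones, 13 measures other than width were compared by two-sided Fisher exact tests with Benjamini-Hochberg adjustment over the 13. Of these, 12 were read at the midpoint or in a fixed central window, so that a wide peak gained nothing by covering more bases, and 1, another peak within 10 kb, was measured from the edges of the peak. Peaks that share a repeat family share sequence and are not independent, so the p-values are too small to that extent. The length of the CpG island gave the widest separation. A CpG island was a run of 200 bp windows with at least 50% GC and a ratio of observed to expected CpG of at least 0.6. The midpoint lay in a run of 1000 bp or more for 342 of 435 broad peaks (78.6%, interval 74.5% to 82.2%) and for 33.3% of narrower peaks (interval 32.5% to 34.1%). Of the 342, 225 were single-copy peaks without internal repeats and 106 were peaks of the repeat families described below. The run is thus a measure of base composition that repeat arrays also meet, and methylation was not measured. The difference was 45.3 percentage points (interval 41.2 to 49.0, adjusted Fisher exact p = 7.25e-80). It was 21.1 points against peaks of 1000 to under 2000 bp, 38.3 points among single-copy peaks and 29.1 points among peaks within 1 kb of a TSS, each past the threshold. A run of 2000 bp or more was found at 50.3% of broad and 2.76% of narrower peaks.

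**Figure D1:**
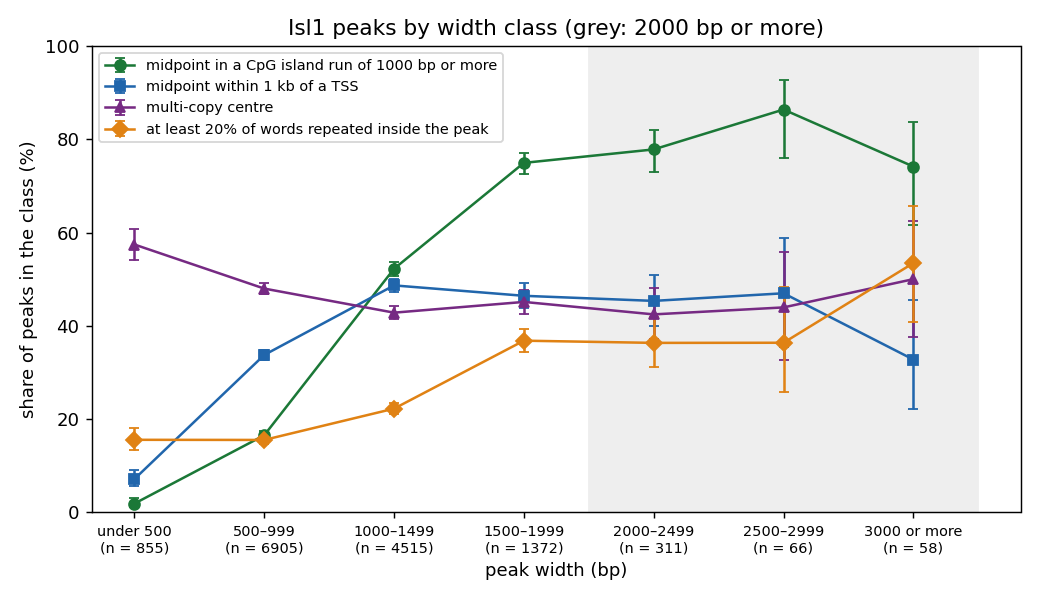
Share of Isl1 peaks (y axis, percent) with each of 4 properties, by peak width in bp (x axis, with the number of peaks in each class), with 95% Wilson intervals as bars and the broad classes on grey. The share with a long CpG island run rose from 1.87% under 500 bp to 74.9% at 1500 to under 2000 bp and was 77.8%, 86.4% and 74.1% in the 3 broad classes, whereas the multi-copy share was 57.4% under 500 bp and between 42.4% and 50.0% in the broad classes.

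A further 4 measures passed the threshold, 1 of them, the side of the TSS on which the midpoint lay, given with the promoter peaks. Midpoints within 1 kb of a TSS made up 43.9% of broad and 38.3% of narrower peaks (adjusted Fisher exact p = 0.0484), and midpoints farther than 10 kb 43.4% and 51.3% (adjusted Fisher exact p = 0.00418). A CpG-island-like centre, which meets both composition limits over the central 200 bp, was found in 70.8% and 60.03% (adjusted Fisher exact p = 2.85e-05). The last 3 differences did not hold against the narrower peaks of 1000 to under 2000 bp. There the share within 1 kb was 48.1% and that with a CpG-island-like centre 74.5%, both higher than in the broad peaks, the share farther than 10 kb was 44.6%, and no difference passed. With only the widest peak of each gene in both groups, the share within 1 kb was 44.8% of broad and 52.2% of narrower peaks, a difference in the other direction (adjusted Fisher exact p = 0.0097). This choice is itself made on width, and it kept 424 of 435 broad but 8889 of 13647 narrower peaks. The changed direction therefore describes that thinning and is no test of the broad peaks. The multi-copy share did not separate the groups, with 43.7% of broad and 46.6% of narrower peaks (difference -2.90 points, interval -7.56 to 1.87, adjusted Fisher exact p = 0.285). With 75-base words in place of 31-base words it was 36.6% of broad and 28.2% of narrower peaks, a difference in the other direction (8.38 points, adjusted Fisher exact p = 0.000823).

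**Figure D2:**
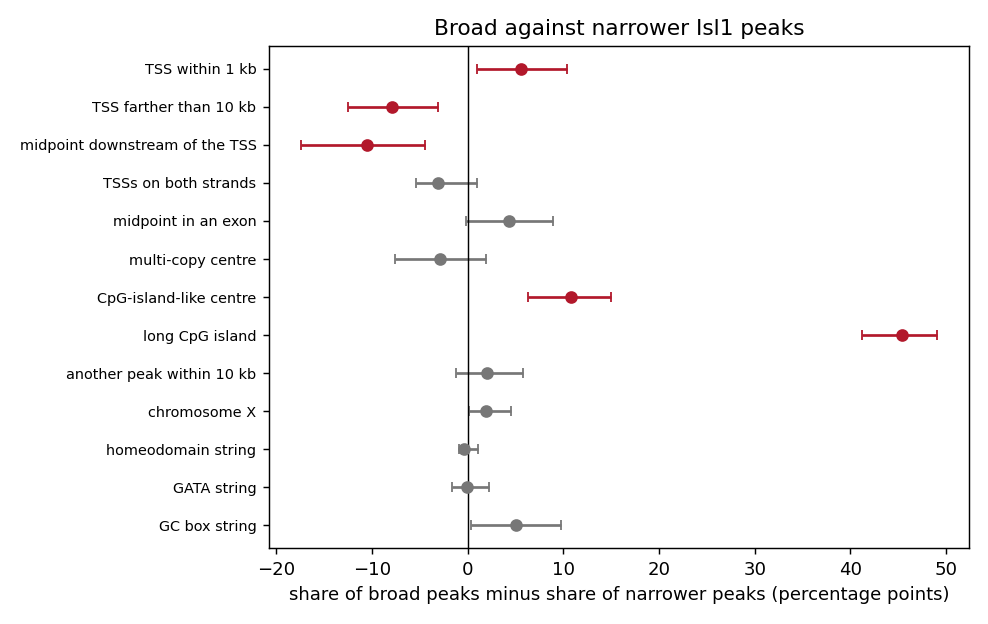
Share of broad peaks minus share of narrower peaks in percentage points (x axis) for each of the 13 measures (y axis), with 95% Newcombe intervals as bars and red for an adjusted p under 0.05. The long CpG island stands at 45.3 points, while the 12 other measures lie between -10.5 and 10.8 points.

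Base composition separated the kinds of broad peak. Over the whole peak, single-copy peaks within 1 kb of a TSS had a median GC content of 69.2% (range 60.8% to 76.3%) and a median CpG ratio of 0.86, and held a median of 239.5 CG dinucleotides. Multi-copy peaks farther than 10 kb had a median GC content of 60.5% (range 50.4% to 69.2%), a CpG ratio of 0.56 and 109 CG dinucleotides. In the promoter group the surrounding island had a median length of 2379 bp, close to the median peak width of 2249 bp, and the peak itself lay in island sequence over a median of 97.9% of its bases. At the 5088 narrower single-copy promoter peaks these medians were 1181 bp of island, 1036.5 bp of peak and 99.0% of bases.

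**Figure D3:**
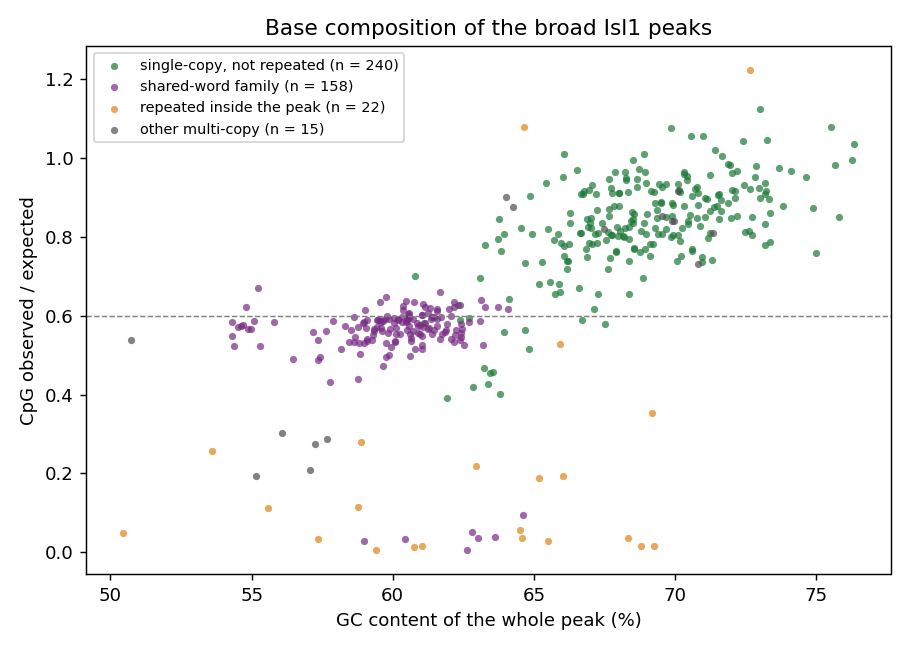
GC content of the whole peak in percent (x axis) against the ratio of observed to expected CpG (y axis) for the 435 broad peaks, 1 point each, coloured by kind, with a dashed line at the island limit of 0.6. The 240 single-copy peaks without internal repeats lie mostly above the line at a median of 68.8% GC, the 158 peaks of shared-word families lie close to the line at 60.4%, and most of the 22 peaks with a repeat of their own lie near 0.

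All 191 broad peaks with a midpoint within 1 kb of a TSS contained it, which their minimum width fixes. From the deposited midpoint distance, a broad peak reached a median of 867.5 bp upstream (quartiles 600 and 1225.5 bp) and 1446.5 bp downstream (quartiles 1110 and 1743.75 bp) of the TSS. Narrower promoter peaks reached 357 bp upstream and 659.5 bp downstream, and since these reaches follow from the width that chose the peaks, they are a description only. The midpoint lay downstream of the TSS for 135 of 191 broad peaks (70.7%) and for 81.2% of the narrower ones (adjusted Fisher exact p = 0.00218), and this difference of -10.5 points kept its direction and passed under each of 6 alternative settings. The broad midpoints were not nearer the upstream side in the median. They lay at 266 bp (quartiles -52 and 562 bp), against 150 bp in narrower peaks (quartiles 40 and 262 bp), and were spread more widely. Whether that spread follows from the width was not tested. Protein-coding TSSs on both strands within 1 kb of the midpoint were found at 9 of 191 broad peaks (4.71%) and at 7.79% of narrower ones (difference -3.08 points, interval -5.42 to 0.98, adjusted Fisher exact p = 0.185). By the annotation, 13 broad peaks covered the TSSs of 2 genes, among them those of Ctbp2, Pdgfa, Zbtb1, Jund, Rmi1, Hnrnpdl and Mocs3.

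**Figure D4:**
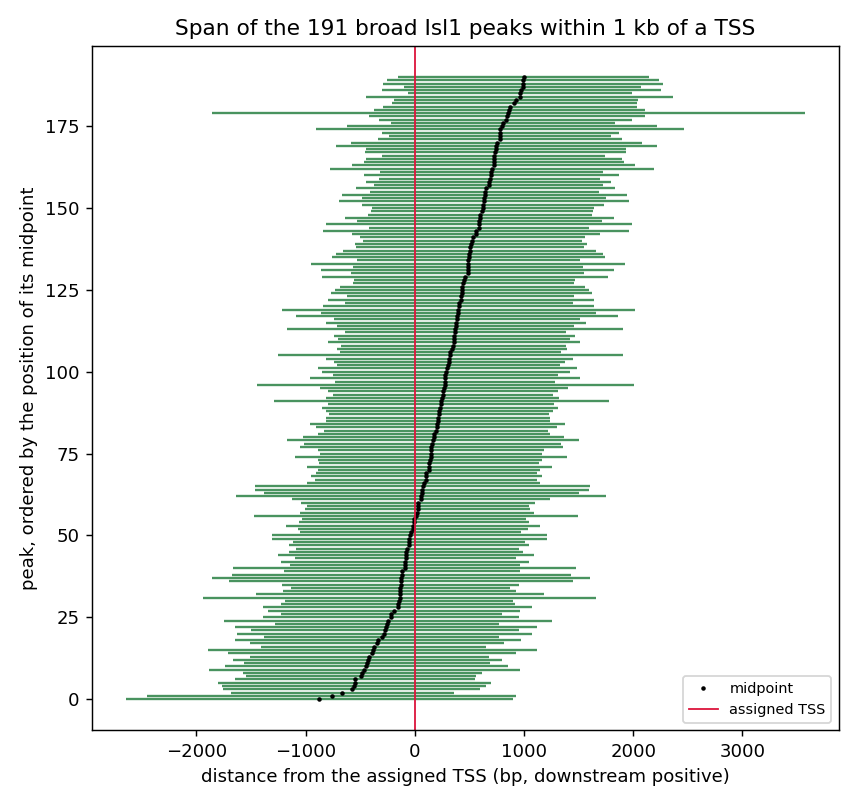
Span of each of the 191 broad peaks within 1 kb of a TSS, as a horizontal line from its upstream to its downstream end in bp from the assigned TSS (x axis), ordered by midpoint (y axis), with dots for midpoints and a red line for the TSS. Every line crosses the TSS, as the minimum width makes certain, and 135 of the 191 midpoints lie on the downstream side.

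The widest promoter peak was at Mn1, a transcriptional coregulator needed for palate development. It spanned 5423 bp (chr5:111845333-111850756) around the TSS, with its midpoint 858 bp downstream in a coding exon. The other widest promoter peaks included those of Brd2 (3604 bp), a bromodomain protein that reads acetylated histones, Insm1 (3452 bp), a zinc-finger repressor of neuroendocrine cells, and Ubtf (3377 bp), the factor of RNA polymerase I at ribosomal genes. Ctbp2 (3236 bp) encodes a corepressor and Arid1b (3156 bp) a subunit of the SWI/SNF remodelling complex. Irs2 (3383 bp) encodes an adaptor of insulin signalling and Zfp36l2 (3370 bp) a protein that binds AU-rich mRNA. Midn (3454 bp) and E030030I06Rik (3539 bp) complete the 10 widest. Their island runs ranged from 1925 bp at E030030I06Rik to 3886 bp at Ctbp2. Only 6 of the 191 promoter peaks had a midpoint outside a run of 1000 bp.

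Several promoter peaks lay at genes with known roles in the heart or in growth, chosen here after their values were seen. Hcn4, the pacemaker channel of the sinus node, had a peak of 2350 bp (chr9:58669927-58672277) with its midpoint 217 bp upstream of the TSS. Adrb1, the main beta-adrenergic receptor of heart muscle, had one of 2246 bp with its midpoint 436 bp downstream. Igf1r, the receptor of insulin-like growth factor, had one of 3007 bp, and Pdgfa, a ligand of platelet-derived growth factor receptors, one of 2640 bp. At the imprinted genes Gnas, a G protein subunit, and Cdkn1c, a cyclin-dependent kinase inhibitor, the peaks spanned 3014 and 2840 bp.

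Among the 42 single-copy peaks 1 to 10 kb from a TSS, the midpoint lay in an exon for 30 (71.4%), against 51.4% of 866 narrower single-copy peaks at these distances (difference 20.04 points, interval 4.69 to 31.9). A long CpG island run was found at 85.7% of the 42, against 33.6% of the narrower ones. These comparisons within a class were not adjusted for their number. The exon share went the other way in single-copy peaks within 1 kb of a TSS, with 59.1% of broad and 66.6% of narrower peaks. In single-copy peaks farther than 10 kb it was 41.2% of broad and 21.5% of narrower peaks, with an interval that included 0. The widest of the 42 were those assigned to Tmem259 (3444 bp, 6195 bp downstream), Irf2bpl (3405 bp), 2310011J03Rik (3249 bp, in a coding exon of Apc2, a brain relative of the Wnt regulator Apc) and Nsd1 (3246 bp), a histone methyltransferase. At Scrt1, a zinc-finger repressor of neurons, 2 broad peaks of 2415 and 2621 bp followed each other along the gene. The peak assigned to Mir17 (2275 bp, chr14:115439481-115441756) lay 2275 bp upstream of its TSS, in sequence of 76.3% GC.

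Farther than 10 kb from a TSS, only 17 broad peaks were single-copy at their centre. The widest of all peaks was among them, 15349 bp assigned to Ttr, the thyroid hormone carrier transthyretin, 42950 bp upstream of its TSS. Of its 31-base words, 63.6% were further copies of a word already in the peak, most often 66 bp apart. The median word with 2 or more genome copies had 100% of them inside the peak. Plec, which encodes the cytoskeletal linker plectin, had 2 peaks with midpoints in coding exons, of 3766 and 2047 bp. Coding exons also held the midpoints of the peaks assigned to 1700008O03Rik (3138 bp, in Shank1, a synaptic scaffold), Zfp316 (2640 bp), Ahdc1 (2311 bp) and Bcl11b (2270 bp), a zinc-finger factor of T cells and neurons. The peak assigned to Slfn5 (3627 bp) lay in Unc45b, the myosin chaperone of striated muscle, in an island run of 3541 bp. Of its words, 34.9% were further copies of a word already in the peak. The peaks of 4933400F21Rik (2128 bp) and Cxcr3 (2450 bp, chromosome X) were in an intron of Agap1 and in intergenic sequence, and that of Gzmf (2450 bp) had a spacing of 212 bp.

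The multi-copy broad peaks shared sequence with one another. Peaks were joined when at least 10% of the 31-base words of the smaller one occurred in the other. This gave 4 families of 5 or more peaks that together held 158 of the 435 broad peaks (36.3%). The largest held 120 peaks on 20 chromosomes and the second 20 peaks on 12 chromosomes. With a limit of 5% or 20% the families held 159 and 157 peaks, and the largest kept 120 and the second 20. In the largest family the central words occurred a median of 2221.25 times in the genome, in the second 844 times. The assigned genes were distant, a median of 96206 bp away in the largest family, and 113 of its 120 peaks lay farther than 10 kb from a TSS, with 87 in intergenic sequence and 33 in introns.

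Inside these peaks the sequence was repeated head to tail. Successive copies of a word lay most often 208 bp apart in 51 peaks of the largest family and 212 bp apart in 44, followed by 214 bp in 9, 201 bp in 7 and 424 bp in 6, the last being 2 units of 212 bp. In the second family the spacing was 206 bp in 12 peaks and 205 bp in 7. At 208 bp a peak spanned a median of 11.7 units and at 212 bp of 10.7 units, while the widest, assigned to 1700008P02Rik (10633 bp, chr3:6297304-6307937), spanned 51.1 units. The unit pair printed above comes from its centre. The next widest peaks of the family were those assigned to Lama2 (8009 bp, in an island run of 7441 bp), Myo3a (5943 bp), 9130204L05Rik (5794 bp), Aga (5648 bp), Mctp2 (5064 bp), Filip1 (4988 bp), Mup18 (4420 bp) and 1700110I07Rik (4408 bp). Of these only the Filip1 peak lay inside its assigned gene, in an intron, and its spacing was 201 bp.

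**Figure D5:**
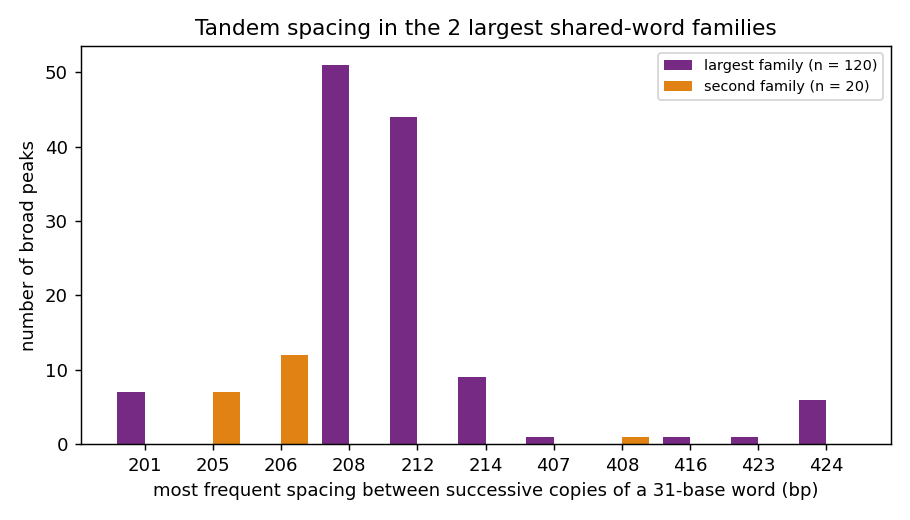
Number of broad peaks (y axis) by the most frequent spacing in bp between successive copies of a 31-base word inside the peak (x axis, observed values only, not to scale), for the 120 peaks of the largest and the 20 of the second shared-word family. Spacings of 208 and 212 bp account for 51 and 44 peaks of the largest family, and 206 bp for 12 of the second.

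Long reading frames lay beside these arrays. A search of 10 kb to either side of the midpoint for frames of at least 1000 codons without a stop, outside the peak and outside annotated coding exons, found one at 114 of 190 multi-copy broad peaks (60%, interval 52.9% to 66.7%) and at 2 of 245 single-copy ones (0.816%, interval 0.224% to 2.93%). Among narrower peaks the shares were 37.4% of multi-copy and 0.631% of single-copy peaks. Of the 114, 111 had frames that pointed away from the peak alone, so that the peak lay before the start of the frame, and 3 had frames in both directions. The longest frame was 1300 codons in 91 of the 114. Direction and length were not particular to broad peaks. Of the 2377 narrower multi-copy peaks with a frame, 2271 had frames that pointed away alone, and in 1838 the longest was 1300 codons. All 20 peaks of the second family had such a frame, as did 90 of 120 of the largest. Between the peak edge and the frame lay a median of 1089.5 bp (quartiles 1066.25 and 1155.75 bp) in the second family and of 1069.5 bp (quartiles 1042.75 and 1129.25 bp) in the largest. No repeat annotation was used, so the elements under the peaks were not named, and this search was chosen after the data were seen.

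The third family held 11 peaks on 9 chromosomes, with a median of 89 copies, no repeated spacing and a narrow range of GC content from 54.3% to 55.2%. The fourth held 7 peaks on 6 chromosomes, all intergenic, with a CpG ratio of 0.04 at a median GC content of 62.8%, the widest being that assigned to Kcnk16 (3986 bp). A peak on sequence with copies elsewhere in the genome cannot be placed with certainty among them. The aligner assigns a read that fits several positions equally well to one of them.

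In a further 22 peaks outside these families, at least 20% of the words were further copies of a word already in the same peak. Of these peaks, 21 lay farther than 10 kb from a TSS. Most repeats were local. The peak assigned to Hrnr (13326 bp, chr3:93083905-93097231) was centred on a coding exon of Flg, the skin barrier protein filaggrin that is made as a chain of repeated units, and its spacing was 750 bp. Those in introns of Arl15 (4245 bp) and Atp8a2 (4089 bp) had spacings of 88 and 24 bp. In each, the median word with 2 or more genome copies had 100% of them inside the peak. The peak assigned to Rasgrf1 (2233 bp, chr9:89774411-89776644), chosen after its values were seen, lay 29086 bp upstream of the TSS. Rasgrf1 is an imprinted gene whose control region upstream is known to carry a tandem repeat. The most frequent spacing in the peak was 40 bp. Its central 200 bp (chr9:89775428-89775627, intergenic) follows, with capitals on the 4 copies of the 12-base word found most often, each 40 bp after the last.
Rasgrf1: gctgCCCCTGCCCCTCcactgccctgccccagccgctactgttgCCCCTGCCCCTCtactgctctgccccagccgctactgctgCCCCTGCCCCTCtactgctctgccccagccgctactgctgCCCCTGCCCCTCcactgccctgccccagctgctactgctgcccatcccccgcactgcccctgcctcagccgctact

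Among the 15 multi-copy peaks outside both groups were pairs of peaks that shared sequence with each other. The heat shock genes Hspa1a and Hspa1b had peaks of 2491 and 2566 bp, with midpoints 995 and 993 bp downstream of their TSSs. Zxda and Zxdb on chromosome X (2573 and 2545 bp) and Zmym2 and Zmym5 (2008 and 2006 bp) were further pairs. The reads of each pair cannot be told apart where the copies are identical.

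Chromosome X carried 24 broad peaks, 5.53% of those on autosomes and X, against 3.60% of narrower peaks (difference 1.93 points, interval 0.114 to 4.51, adjusted Fisher exact p = 0.0921). Of the 24, 23 were multi-copy, the exception was the Cxcr3 peak, and none lay within 1 kb of a TSS. The largest and second families held 13 and 6 of them. Of the 491 narrower peaks on chromosome X, 431 were multi-copy and farther than 10 kb from a TSS. Only 24 of the 491 lay within 1 kb of one, so these traits are not particular to the broad peaks. The other broad peaks were on every autosome, from 7 on chromosome 19 to 33 on chromosome 8, and 1 was on chromosome Y.

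Another peak within 10 kb, measured from edge to edge, was found beside 68 broad peaks (15.6%) and 13.6% of narrower ones (difference 1.99 points, interval -1.18 to 5.74, adjusted Fisher exact p = 0.285). The closest neighbour was 27 bp away, at Prr12, and 49 bp away at Foxo1, 61 bp at the wider Plec peak and 62 bp at Cebpb. Midpoints in exons made up 35.6% of broad and 31.3% of narrower peaks (difference 4.29 points, interval -0.135 to 8.96, adjusted Fisher exact p = 0.0961). In 11 genes 2 broad peaks were assigned to the same name. At Scrt1 and Plec both were single-copy, and at Fzd5, a Wnt receptor, and Galnt7 a single-copy promoter peak came with a distant multi-copy one. At Adam29, Aga, F630206G17Rik, Hrh1, Spanxn4, Tmem47 and 4930459L07Rik both were multi-copy and farther than 10 kb from the TSS.

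Short strings were counted in the central 200 bp on both strands. The homeodomain strings were TAATTG and TAATGG, the core that LIM-homeodomain factors are known to prefer. One was present in 4 broad peaks (0.920%), those of Kctd15, Sdc1, Rmi1 and Agtr1b, and in 1.26% of narrower peaks (adjusted Fisher exact p = 0.72). In windows of the same length before the TSSs of 32851 RefSeq promoters (GRCm38.p6) the share was 10.4%. These windows were not matched to the peaks in base composition or in position relative to a TSS. The peak centres had a median GC content of 66.5% in both groups, and these strings are rich in A and T. The promoter shares here and below are therefore a description and do not measure depletion or enrichment of a string at peaks. A GATA string (GATAA or GATAG after an A or a T) was present in 4.14% of broad and 4.22% of narrower peaks (adjusted Fisher exact p = 1) and in 21.4% of promoter windows. The GC box string GGGCGG, the type of site known for Sp and Klf factors, was present in 46.9% of broad and 41.9% of narrower peaks (adjusted Fisher exact p = 0.0829) and in 31.05% of promoter windows. Against peaks of 1000 to under 2000 bp, of which 53.7% held a GC box, the broad peaks were lower (adjusted Fisher exact p = 0.0308). In broad single-copy peaks the GC box occurred 4.57 times per kb of peak and in multi-copy ones 1.33 times. The central 500 bp gave lower shares in broad than in narrower peaks for the homeodomain string, 3.22% against 5.83%, and for the GATA string, 7.82% against 15.5%. For the GC box it gave a higher share in broad peaks, 68.05% against 59.6%, and this difference passed (adjusted Fisher exact p = 0.00164).

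Genes assigned to broad peaks were counted by function. The 435 peaks carried 424 gene names, 423 of which were matched, and 375 of 21900 protein-coding genes (1.71%) had a broad peak. This share of 1.71% is the background for every list below, and among the 8211 genes with a peak of any width it was 4.57%. The lists were written from general knowledge, do not hold every gene of their kind and were not tested. Of 585 genes on the 14 lists, 38 had a broad peak (6.496%).

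Of 50 cardiac transcription factors, 39 had a peak of any width and 7 (14.0%) a broad one. At Foxf1 (2697 bp, 279 bp upstream), a forkhead factor of lateral mesoderm, Foxc2 (2240 bp, 913 bp downstream), a forkhead factor of the outflow tract and aortic arches, Klf13 (2949 bp), a zinc-finger partner of Gata4, Pbx3 (2146 bp), a homeodomain cofactor, and Zfpm1 (2129 bp), a cofactor of GATA factors, the peak was single-copy and within 1 kb of the TSS. The peak of Irx3 (2306 bp), an Iroquois factor of the ventricular conduction system, lay 1069 bp downstream and had 2 copies at its centre. That of Tbx18 (2438 bp), a factor of the sinus venosus and epicardium, lay 108303 bp upstream on sequence of the largest repeat family with 2201 copies. None of the 40 sarcomere, contraction and calcium handling genes had a broad peak, while 14 of them had a narrower one, and none of the 30 FGF pathway genes had one, while 22 had a narrower one. At a background of 1.71%, lists of this size can lack a broad peak, so no depletion is read from these counts. With a minimum of 1500 bp, 3 of the 40 and 2 of the 30 had such a peak.

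Of 37 Klf, Sp, Egr and other GC-binding zinc-finger genes, 7 had a broad peak (18.9%), with Egr4 (2812 bp), Yy1 (2675 bp), Zbtb7a (2529 bp), Maz (2526 bp), Hic1 (2431 bp) and Klf16 (2011 bp) besides Klf13. Of 40 remodelling genes, 4 had one (10.0%), Arid1a (3070 bp), Arid1b, Arid2 (2328 bp) and Chd7 (2393 bp), all single-copy and within 1 kb of the TSS. The first 3 encode subunits of SWI/SNF complexes, and Chd7 encodes a remodeller mutated in CHARGE syndrome, which includes heart defects. Of 54 Polycomb and histone modification genes only Dnmt3a (2408 bp), a DNA methyltransferase, had one (1.85%). That list was not complete, since Nsd1, named above, and Kmt2c (2351 bp), another histone methyltransferase, and the histone demethylases Kdm2a (2194 bp) and Kdm7a (2065 bp) had broad peaks and were not on it. These were named after their values were seen.

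Of 46 BMP, TGF-beta and Nodal genes, 4 had a broad peak (8.70%). These were the ligand subunit Inhbb (2672 bp), the BMP inhibitor Nog (2121 bp) and the Smad corepressors Ski (2131 bp) and Skil (2145 bp). Of 50 Wnt genes, 2 had one (4.00%), the feedback inhibitor Axin2 (2312 bp, 831 bp downstream) and the receptor Fzd8 (2264 bp, 1139 bp downstream). The receptor Fzd5, whose promoter peak spanned 2481 bp, was not on this list. The Notch list had Jag2 (2270 bp), a ligand, 1 of 31 genes, and the Hedgehog and retinoic acid list Gas1 (2872 bp), a Hedgehog coreceptor, 1 of 32. Of 49 guidance genes 4 had one (8.16%), the receptors Ephb2 (2495 bp), Plxnc1 (2138 bp) and Plxnd1 (2039 bp), the last a semaphorin receptor of the outflow tract vessels, and the ligand Ntn1 (2665 bp).

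Of 70 Hox and neural patterning factors 5 had a broad peak (7.14%). Pou3f3 (2583 bp), Zic2 (2072 bp), Zic5 (2020 bp) and En2 (2034 bp) had it at the gene, and Zic2 and Zic5 are neighbours on chromosome 14. The Nkx6-1 peak (2437 bp) lay 29362 bp downstream on a local repeat with a spacing of 27 bp. Of 30 blood and endothelial genes, Erg (2443 bp) and Sox17 (2097 bp) had one (6.67%), both farther than 10 kb from the TSS on sequence of the largest repeat family, with 2255 and 1545 copies. Of 30 housekeeping genes only Ywhaz (2027 bp), a 14-3-3 protein, had one (3.33%). Of the 38 list genes, 34 had a broad peak within 10 kb of the TSS, and the other four, Tbx18, Erg, Sox17 and Nkx6-1, had theirs farther away on repeated sequence.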

How the data were processed

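Isl1 ChIP-Seq of day 5 CPCs was analysed from 1 deposited peak list. The authors aligned reads to mm9 with Bowtie2 at default settings, removed duplicates with Picard 1.136, called peaks with MACS against input, dropped blacklisted regions, kept peaks shared by both replicates with bedtools 2.15 and assigned the closest TSS. The deposited values are start, end and signed distance in bp. Whether starts count from 0 or 1 is not given in the sources used here, nor which replicate set the width of a shared peak, and starts are uncertain by 1 bp.

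Identical lines were merged. Coordinates were read from NCBI m37 (mm9), with features from GENCODE M1, using Python 3.11.15, pandas 2.3.3, numba 0.67.0, networkx 3.6.1 and samtools 1.23.1. Gene names were matched to a RefSeq table of GRCm38.p6, from which no coordinates were used. The word, island and string counts were tested on simulated data. Shares were compared with scipy 1.17.1. Genes named were those of the 15 widest peaks, the 10 widest promoter peaks, the 10 widest single-copy distal peaks, genes with 2 or more broad peaks, list genes with a broad peak, peaks beside the limit and peaks on 3 lines, and any others are marked or illustrate a count. Members, lists and tests were chosen with earlier results of these data known, and repeat families, spacings and reading frames were added after seeing the data. Some items are not reported here.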

Additional observations from a re-analysis of the deposited data

How the results depend on the processing

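In all, 107 alternative values were computed for 17 results. Of these 57 changed neither sign nor significance, or for a count stayed within 1.5 times, 30 changed direction, 10 came to pass the threshold, 5 no longer passed it and 5 counts moved. The long CpG island and the midpoint downstream of the TSS kept direction and passed under each alternative run for them, with differences from 21.1 to 47.6 and from -28.3 to -6.91 percentage points. Differences below are shares of broad minus shares of narrower peaks in percentage points, after adjustment.

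With a minimum of 3000 bp there were 58 peaks, and the differences were -5.73 within 1 kb of a TSS, 2.38 farther than 10 kb, -2.17 in exons, 3.53 for multi-copy centres, 5.18 for CpG-island-like centres, -0.21 for chromosome X and -7.58 for the GC box, none past the threshold. With 1500 bp there were 1807 peaks and 124 list genes, by construction more, and differences of 4.27 in exons and 11.6 for the GC box that passed, with -0.042 for another peak within 10 kb. Against peaks of 1000 to under 2000 bp the differences were -4.23 within 1 kb, -1.12 farther than 10 kb, -1.53 in exons, 0.33 multi-copy, -3.73 CpG-island-like, 0.19 homeodomain, 0.93 GATA and -6.78 GC box, the last past the threshold. Single-copy peaks alone numbered 245 and gave 6.13 within 1 kb and 5.69 CpG-island-like, neither passing, and -0.086 for chromosome X. With the widest peak of each gene alone the values were -7.40 within 1 kb, 6.98 multi-copy, 5.34 for another peak within 10 kb and 2.42 for chromosome X, all past the threshold, and 5.34 farther than 10 kb, -4.74 in exons, 0.81 CpG-island-like, 0.45 GATA and -2.25 GC box, not past it. Since this choice is made on width and removed mostly narrower peaks, these values are a description only.

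After merging of peaks within 1000 bp the values were 4.55 in exons, -10.5 multi-copy, 5.03 for another peak within 10 kb and 1.46 homeodomain, past the threshold, and 1.91 GATA. Among peaks within 1 kb of a TSS they were -6.59 in exons, -2.69 CpG-island-like, -2.85 for another peak, -0.46 for chromosome X, 0.65 GATA and -2.39 GC box, none passing. Words of 75 bp gave 8.38 for multi-copy centres, and the central 500 bp gave -2.61 homeodomain, -7.73 GATA and 8.40 GC box, all past the threshold. Requiring a frame to end within 5 kb of the midpoint left 4 of 114 peaks, by construction, since a frame of 1300 codons and the gap before it take up most of that distance. For the other changes the cause was not tested.

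No paired analysis was possible because the 2 ChIP samples had been merged into 1 list and the input is 1 sample only. Leaving out each replicate in turn could not be done for the same reason. Limits are that depth and signal strength are unknown, that the width of a peak depends on the caller's cutoff and on sequencing depth, that copy numbers are those of the reference strain and were not measured in these cells, and that an assigned gene is the closest TSS only.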
